A study of Homo sapiens with 4 samples.

Results

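The genes described here are 41 genes of DNA double-strand break repair and of the Fanconi anaemia pathway, from the kinase gene ATM to the Fanconi gene FANCM. They were chosen by name, and every probe that carries one of these names on the arrays was taken, which gave 53 of 34127 probes (41 of 27193 gene names). Their transcripts were measured in THP1, a human monoblastic AML cell line that carries the fusion gene MLL-AF9. THP1 cells received a single transfection of 30 nM of a miRNA mimic, a synthetic RNA that supplies a mature miRNA, and RNA was harvested on day 2 after culture in low-serum medium. One treatment was the mimic of miR-511-5p (miR-511 mimic). The other was negative control #1 mimic, and all cells of both treatments had thus been transfected. In 2 independent experiments each treatment gave 1 array, so 2 arrays stand against 2. All arrays came from 1 cell line, and p-values measure the spread between these 4 arrays. The limma p-values and the errors given with ± also draw on the spread of all tested probes.

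A double-strand break is the most dangerous lesion of DNA. The complex of MRE11, RAD50 and NBN senses the broken ends, and the kinases ATM, ATR and DNA-PKcs signal the damage. Ends are either ligated directly by non-homologous end joining or cut back to single strands and repaired from the sister chromatid by homologous recombination, in which BRCA1, PALB2 and BRCA2 act together on the resected ends. The Fanconi anaemia proteins act when crosslinked strands block replication, and hand the lesion over to homologous recombination. Proliferating leukemia cells such as THP1 depend on these pathways.

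A miRNA recognizes a transcript mainly through its seed, bases 2 to 8. The seed of the transfected miRNA and the places where it could pair within the stretches that the arrays read are shown because any direct pairing would start there. The mature sequence (RefSeq, GRCh38.p14, chr10:17845122-17845142, plus strand) has its seed in capitals:
hsa-miR-511-5p: gUGUCUUUugcucugcaguca
Its reverse complement in DNA letters is AAAGACA. Of the 34127 probe sequences, 331 (0.97%) held these 7 letters, and of the 53 member probes 2 did, XRCC2 and the second FANCF probe. Windows of 30 bases around the matches follow, with the match in capitals, taken from the probe sequences, which read as the transcript does:
XRCC2: atcattgttatAAAGACAcatgcacgcgta
FANCF: tgcatttaggaAAAGACAagttttgggtct
The XRCC2 window lies at chr7:152343961-152343990 and the FANCF window at chr11:22646257-22646286, both on the minus strand of hg19. Matches to 6 bases of the seed were also read in CHEK2 and RBBP8 (bases 2 to 7) and in FANCM (bases 3 to 8):
CHEK2: ggatgAAGACAtgaagagaaagtttcaaga
RBBP8: ggcaaggagcagAAGACAtagacgttgaaa
FANCM: gatggggttttcAAAGACctctcacaatat
The RBBP8 window lies at chr18:20606183-20606212 and the FANCM window at chr14:45669225-45669254, both on the plus strand. The CHEK2 probe crosses an exon junction between chr22:29085145 and 29090020 on the minus strand. With the 7-base matches included, the 6 letters AAGACA stood in 2.83% of all probe sequences and in 4 of the 53 member probes (7.55%). AAAGAC stood in 2.53% of all and in 3 of the 53 (5.66%). A match in a probe is a description of 60 bases of a transcript and no target site. Transcripts outside the probes were not analysed here. The differences measured for these 5 probes are given with the genes.

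Every member was detected. Of the 53 probes, 52 were well above background on all 4 arrays, and the other on 3. The exception was the dimmer of the 2 probes of RNF8, a ubiquitin ligase recruited to damaged chromatin, which was not well above background with miR-511 mimic in experiment 1. Array means of quantile-normalized log2 values ran from 4.07 for that RNF8 probe to 16.8 for XRCC6, the Ku70 subunit of the DNA-end clamp. None of the 143 member spots per array was saturated. Levels of different probes are not compared, because probes differ in how brightly they bind.

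miR-511 mimic left no detectable change in these transcripts at this number of arrays. None of the 53 probes passed an unadjusted p of 0.05 in limma (background, 498 of 22638 tested probes, 2.20%; 1.27% higher and 0.932% lower with miR-511 mimic). None passed after Benjamini-Hochberg adjustment either, where the smallest adjusted p of any tested probe was 0.790. A plain equal-variance comparison of the array values, without limma's shared spread, called 2 member probes before adjustment, FANCE and FANCM, and 0 after it. Over all 22638 tested probes the plain comparison called 708 before adjustment and 0 after it. The members' median log2 fold change (log2FC, miR-511 mimic minus control mimic) was 0.03, beside 0.01 over all tested probes. The extremes were the brighter RNF8 probe and TP53BP1, both at -0.19, and PRKDC at 0.31.

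The precision allowed an upper limit for most members. The 95% interval of the log2FC lay within a 1.5-fold change either way for 45 of 53 probes (84.9%, beside 72.1% of all tested probes) and within a 2-fold change for 52 (98.1%, beside 90.7%). The 1 probe whose interval reached further was TP53BP1, which encodes 53BP1, the adaptor that favours end joining, with an interval from -1.01 to 0.63. The 7 others beyond 1.5-fold were the brighter RNF8 probe, FANCI, CHEK1, RBBP8, RAD52, PRKDC and the dimmest FANCA probe.

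**Figure D1:**
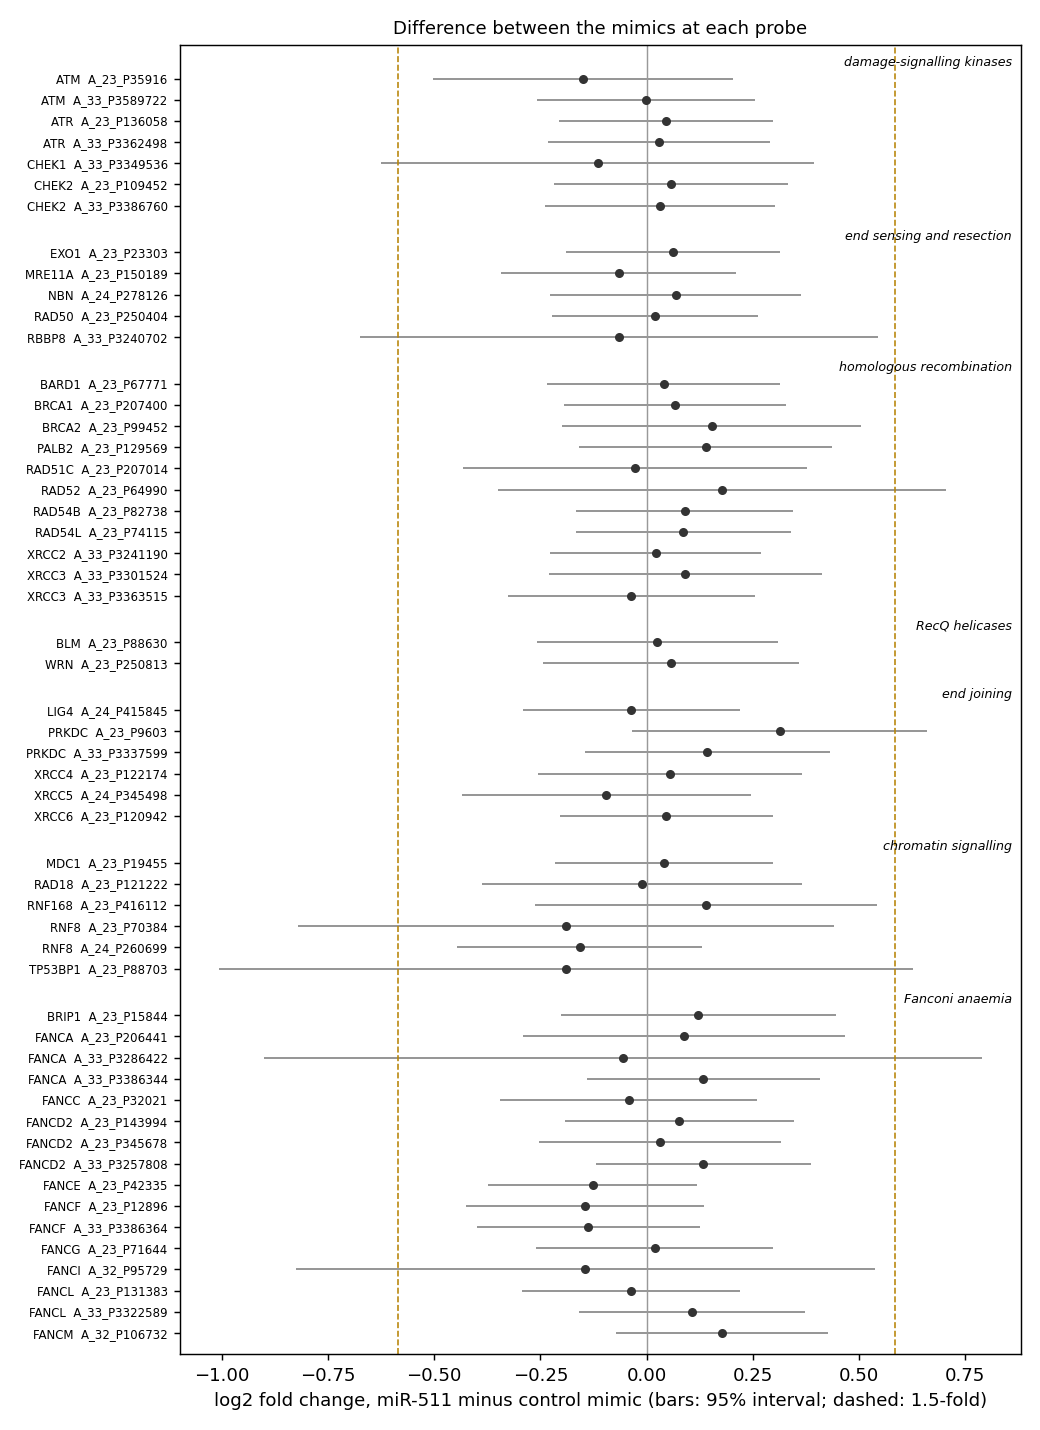
log2 fold change of each member probe (miR-511 mimic minus control mimic, points) with its 95% interval from limma (bars), 2 arrays per treatment, grouped by role. Every interval crosses 0, and 45 of the 53 lie within the dashed lines that mark 1.5-fold.

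Apart from DNA-PKcs, which is given with end joining, no kinase of damage signalling differed by more than about its error. The 7 probes of ATM, ATR, CHEK1 and CHEK2 gave log2FC between -0.15 and 0.06, 4 higher and 3 lower with miR-511 mimic. For ATR, the kinase of stalled replication forks, the probe with the smallest error read 11.49 and 11.47 with miR-511 mimic in experiments 1 and 2, and 11.40 and 11.47 with the control mimic. These 4 values lie so close that the difference was 0.05 ± 0.09 (SE, n = 2 arrays per treatment). ATM, the kinase that answers to broken ends, was read by 2 probes. The probe printed 10 times gave 7.74 and 7.95 with miR-511 mimic and 8.08 and 7.91 with the control mimic. The log2FC was -0.15 ± 0.13. It came from experiment 1 alone, where the difference was -0.34, while in experiment 2 it was 0.04. The second ATM probe gave -0.002 ± 0.09. CHEK2, the effector kinase downstream of ATM, differed by 0.06 ± 0.10 at the probe with the 6-base match to the seed.

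Most homologous recombination probes were on the higher side. Of 11 probes of 10 genes, 9 were higher and 2 lower with miR-511 mimic (median 0.09), and 8 were higher in both experiments. Among all tested probes 53.7% were higher, and among all member probes 62.3%. The 11 probes were read on the same arrays and are not independent of each other. None of the 11 passed the test. BRCA2, the tumour suppressor that mediates strand exchange, read 8.43 and 8.62 with miR-511 mimic and 8.27 and 8.47 with the control mimic. The miR-511 array was higher within each experiment by 0.16 and 0.15, but the treatments overlapped because experiment 2 was higher for both (log2FC 0.15 ± 0.13). With the experiment as a block, the BRCA2 error was 0.08 and limma's unadjusted p was 0.143. BRCA1, the partner that starts resection and recruits PALB2, read 11.84 and 11.92 against 11.78 and 11.85, a log2FC of 0.07 ± 0.10. RAD52, a strand-annealing protein, read 8.87 and 8.67 with miR-511 mimic against 8.81 and 8.36 with the control mimic. Its control array of experiment 2 stood 0.30 below all other arrays, so that the log2FC of 0.18 ± 0.19 turned to -0.05 without that array.

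RAD54B, a chromatin-remodelling helper of strand invasion, gave 9.55 and 9.58 with miR-511 mimic and 9.43 and 9.51 with the control mimic. Both miR-511 values were above both control values, by a log2FC of 0.09 ± 0.09. XRCC2, a homologous recombination factor, gave 9.52 and 9.57 against 9.50 and 9.55. The 2 treatments differed by 0.02 ± 0.09, with the 7-base match to the seed inside the probe. XRCC3, which also acts in strand exchange, had 2 probes that differed in sign. The dimmer gave 12.03 and 11.90 with miR-511 mimic and 11.97 and 11.79 with the control mimic (0.09 ± 0.12), and the brighter gave 16.18 and 16.10 against 16.10 and 16.25 (-0.04 ± 0.11). Neither XRCC3 difference exceeded its error. The brighter XRCC3 probe was the only member probe without a match in RefSeq.

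End sensing and resection held the probe that varied least. RAD50, the ATPase of the MRE11 complex, read 10.70 and 10.72 with miR-511 mimic and 10.70 and 10.68 with the control mimic, a log2FC of 0.02 ± 0.09. All 4 arrays lay within 0.043. EXO1, the nuclease that extends resection, read 11.16 and 11.13 against 11.04 and 11.12. Both miR-511 values exceeded both control values, but the log2FC of 0.06 ± 0.09 was smaller than limma's error, which also draws on other probes. RBBP8 encodes CtIP, which starts resection with the MRE11 complex. Its probe, with a 6-base match to the seed, differed by -0.42 in experiment 1 and by 0.29 in experiment 2 (log2FC -0.07 ± 0.22). MRE11A (-0.07 ± 0.10) and NBN (0.07 ± 0.11) lay on opposite sides of 0.

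Both RecQ helicases, which unwind recombination intermediates and are lost in Bloom and Werner syndromes, were on the higher side by less than their errors. BLM read 12.44 and 12.56 with miR-511 mimic and 12.42 and 12.53 with the control mimic (0.03 ± 0.10). WRN read 10.15 and 10.31 against 10.12 and 10.23 (0.06 ± 0.11). In both genes the 2 arrays of an experiment lay closer to each other than to the arrays of the same treatment.

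End joining held the largest difference among the members. PRKDC encodes DNA-PKcs, the kinase that Ku recruits to broken ends, and its brighter probe read 10.65 and 10.40 with miR-511 mimic and 10.25 and 10.17 with the control mimic. Both miR-511 values were above both control values (log2FC 0.31 ± 0.13, limma adjusted p = 0.9999), and the unadjusted limma p of 0.0663 was the lowest of the members. With the experiment as a block, limma's unadjusted p was 0.0422. Without the miR-511 array of experiment 2 it also passed the unadjusted threshold, at a log2FC of 0.44, and without that of experiment 1 it was 0.19 and did not. The second PRKDC probe read 7.28 and 7.18 against 7.02 and 7.15, the same side in both experiments, with a log2FC of 0.14 ± 0.11.

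The other end-joining genes stayed near 0. XRCC6 read 16.82 and 16.82 with miR-511 mimic and 16.74 and 16.81 with the control mimic (0.05 ± 0.09). XRCC4, the scaffold of the ligase complex, read 9.15 and 9.27 against 9.07 and 9.23 (0.06 ± 0.11). XRCC4 differed more between the experiments (0.14 higher in experiment 2) than between the treatments. XRCC5, the Ku80 partner of XRCC6, differed by -0.09 ± 0.12, and LIG4, the ligase itself, by -0.04 ± 0.09.

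Chromatin signalling was the group with a median below 0. Of 6 probes of MDC1, RNF8, RNF168, TP53BP1 and RAD18, 2 were higher and 4 lower with miR-511 mimic (median -0.08), and none passed the test. MDC1, the adaptor that binds phosphorylated H2AX, read 12.45 and 12.37 with miR-511 mimic and 12.36 and 12.38 with the control mimic. The difference was 0.04 ± 0.09. In TP53BP1 and RNF8 single arrays stood apart. TP53BP1 read 11.59 and 10.79 with miR-511 mimic against 11.47 and 11.29, and its miR-511 array of experiment 2 stood 0.50 below all others. The brighter RNF8 probe read 10.64 and 11.23 against 11.04 and 11.21, with the miR-511 array of experiment 1 at 0.40 below all others. The dimmer RNF8 probe read 3.92 and 4.08 with miR-511 mimic and 4.18 and 4.13 with the control mimic, lower in both experiments (-0.16 ± 0.11), but the first of these values was not well above background. RNF168, the ligase that acts after RNF8, differed by 0.14 ± 0.15.

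Fanconi anaemia genes divided by sign, with 9 of 16 probes higher and 7 lower (median 0.03). FANCM, the translocase that anchors the core complex at stalled forks, read 10.71 and 10.69 with miR-511 mimic and 10.49 and 10.56 with the control mimic. Both miR-511 values were above both control values, by 0.18 ± 0.09 (limma adjusted p = 0.9999). It holds the 6-base match to bases 3 to 8 of the seed. FANCF, the adaptor of the core complex, was the member for which 2 separate probes were both lower in both experiments. Its first probe read 9.51 and 9.36 with miR-511 mimic and 9.59 and 9.57 with the control mimic (-0.14 ± 0.10). Its second probe, which holds the 7-base match, read 9.79 and 9.86 against 10.01 and 9.92 (-0.14 ± 0.10). At both probes the 2 miR-511 values lay below the lower control value, and limma's adjusted p was 0.9999 for each.

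FANCE, the subunit that links the core complex to FANCD2, read 14.32 and 14.28 with miR-511 mimic and 14.41 and 14.44 with the control mimic. The treatments did not overlap (-0.13 ± 0.09), and the plain equal-variance comparison gave an unadjusted p of 0.0323. For FANCM that p was 0.0354. FANCC, a further subunit of the core complex, read 10.24 and 10.33 against 10.24 and 10.41. Its log2FC was -0.04 ± 0.11, and in experiment 1 the treatments differed by less than 0.01.

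Probes of a Fanconi gene did not always side together. FANCL, the ubiquitin ligase of the core complex, read 12.05 and 12.14 with miR-511 mimic and 12.13 and 12.13 with the control mimic at one probe (-0.04 ± 0.09). The other FANCL probe read 9.60 and 9.51 against 9.41 and 9.49 (0.11 ± 0.10). FANCA, the core component mutated in most patients, had 3 probes. The probe printed 10 times read 10.003 and 9.74 with miR-511 mimic and 9.86 and 9.71 with the control mimic (0.09 ± 0.14), and a further one read 9.79 and 9.66 against 9.57 and 9.62 (0.13 ± 0.10). The dimmest FANCA probe read 6.33 and 6.27 against 5.93 and 6.78. Its control arrays lay on either side of both miR-511 arrays, so the log2FC of -0.06 ± 0.31 says least of the 3. FANCD2, the protein that the core complex ubiquitinates, had all 3 probes on the higher side (0.03, 0.08 and 0.13), and none of them passed the test.

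**Figure D2:**
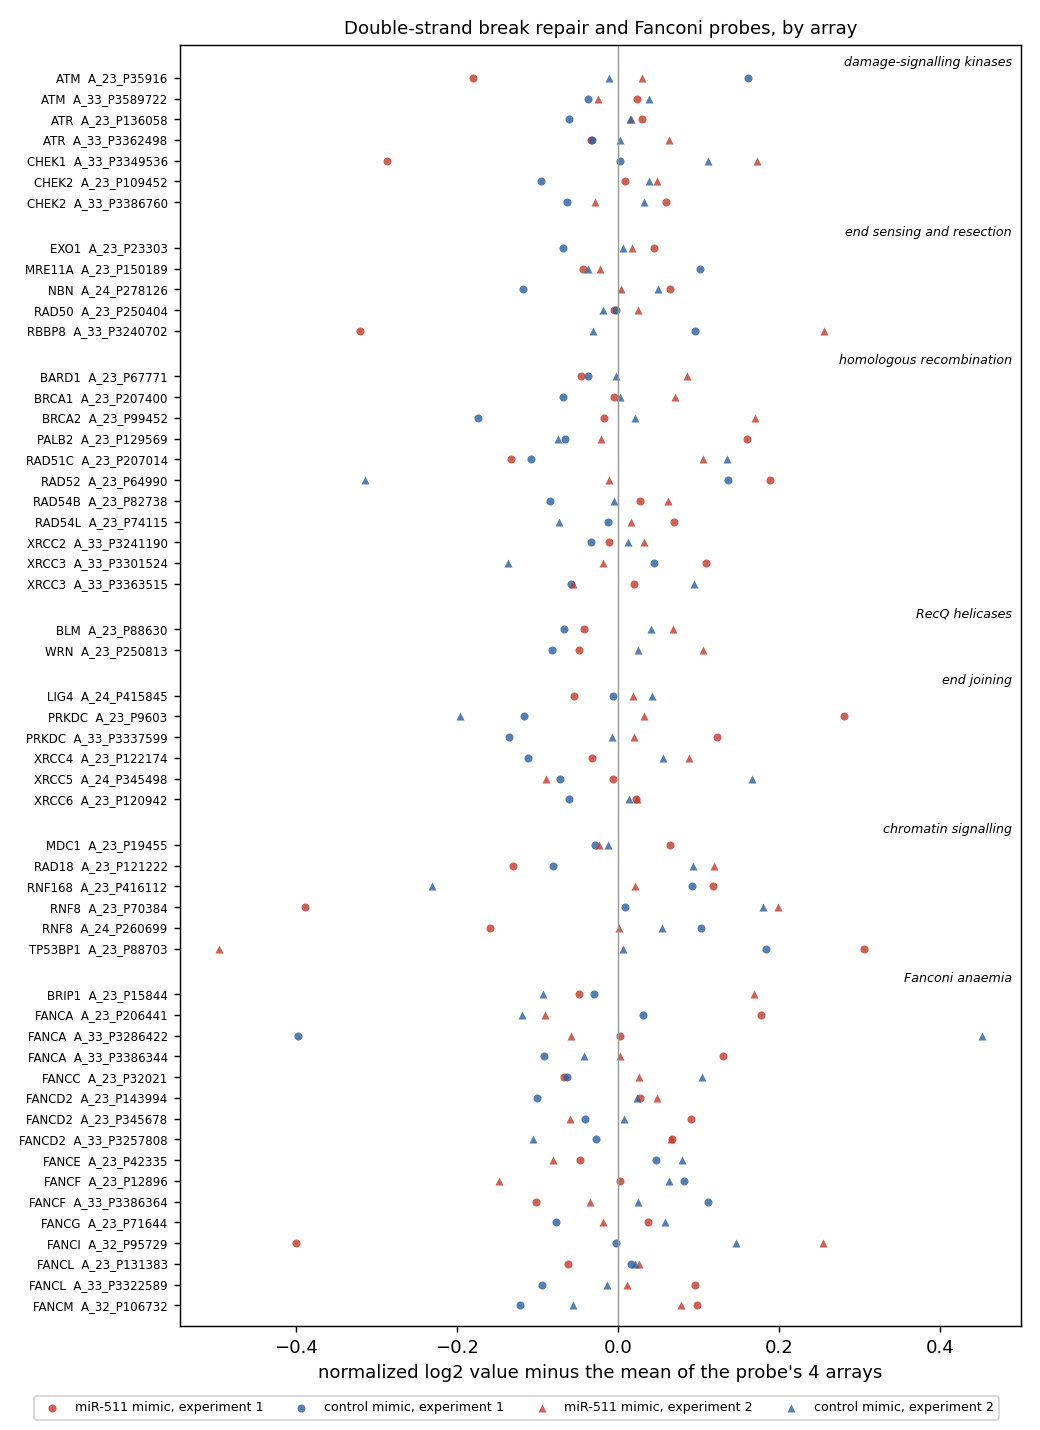
Quantile-normalized log2 value of each member probe on each array, minus the mean of its 4 arrays, grouped by role; red is miR-511 mimic and blue the control mimic, circles are experiment 1 and triangles experiment 2. The colours mix for most probes, and the points farthest from 0 belong to TP53BP1, the dimmest FANCA probe, FANCI, RNF8 and RBBP8.

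The 2 experiments bore on direction as follows. Of the 53 probes, 31 differed in the same direction in both experiments (58.5%, beside 51.0% of all tested probes), 24 higher and 7 lower with miR-511 mimic. The values of the treatments did not overlap for 17 probes, 13 higher and 4 lower (32.1%, beside 25.7% of all tested probes). With 2 arrays against 2, such a full separation has an exact two-sided permutation p of 0.333 for a single probe. Of the 17 probes, 8 were among the 16 Fanconi probes, including both FANCF probes, FANCE, FANCM and 2 of 3 FANCD2 probes. The share of Fanconi probes was not tested. The members' median difference was 0.06 in experiment 1 and 0.02 in experiment 2, and over all tested probes it was 0.03 and -0.0006.

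**Figure D3:**
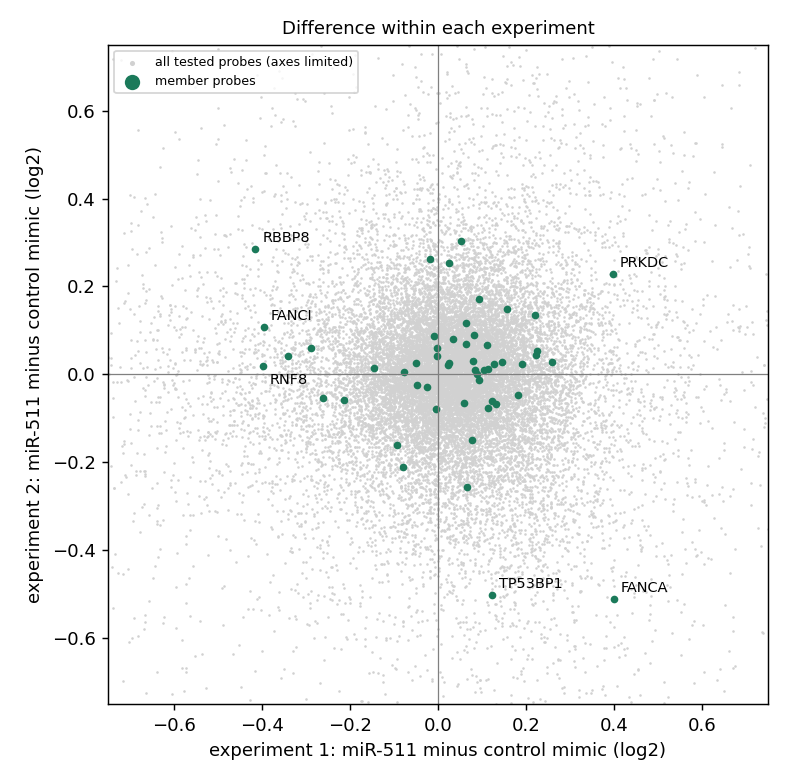
Difference of miR-511 mimic minus control mimic in experiment 1 (x axis, log2) and experiment 2 (y axis, log2) for the 53 member probes (green) and all tested probes within the axes (grey). Of the members, PRKDC lies farthest to the upper right with 0.40 and 0.23, while RBBP8, FANCA and TP53BP1 lie where the experiments had opposite signs.

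Some members stood apart on 1 array. On the miR-511 array of experiment 1, RNF8 (0.40), FANCI (0.40), RBBP8 (0.29) and CHEK1 (0.29) lay more than 0.2 below all 3 other arrays. These were 4 of 53 probes, beside 7.39% of all tested probes. The brighter PRKDC probe lay 0.25 above all 3 other arrays there, 1 of 53 probes beside 5.07% of all tested probes. FANCI is the partner of FANCD2, and it read 12.69 and 13.35 with miR-511 mimic against 13.09 and 13.24. CHEK1, the effector kinase of ATR, read 10.46 and 10.92 against 10.75 and 10.86. On the same array 22130 probes were well above background, the lowest number of the 4 (the others, 22736 to 23647), and the copies of probes printed 10 times spread most. The part of these array properties in the results was not tested.

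The copies of a probe on 1 array give the error of reading that array. Of the 10 member probes printed 10 times, 7 had their largest SD over copies on the miR-511 array of experiment 1, as had 62.7% of 738 tested probes with copies. For ATM the copies on that array ran from 7.001 to 8.04 (SD 0.39), while on the control array of experiment 1 they ran from 7.75 to 8.17 (SD 0.13). The ATM array means of experiment 1 were 0.34 apart. With the median of the copies in place of the mean, a choice made after these values were seen, the ATM difference went from -0.15 to -0.05, and that of RAD18 from -0.01 to 0.06. For RAD50 the SD over copies was 0.04 to 0.08 on every array. BRCA2 (0.05 to 0.10), FANCA (0.04 to 0.08) and WRN (0.04 to 0.08) were read about as tightly, and their array means spanned 0.34, 0.30 and 0.19.

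**Figure D4:**
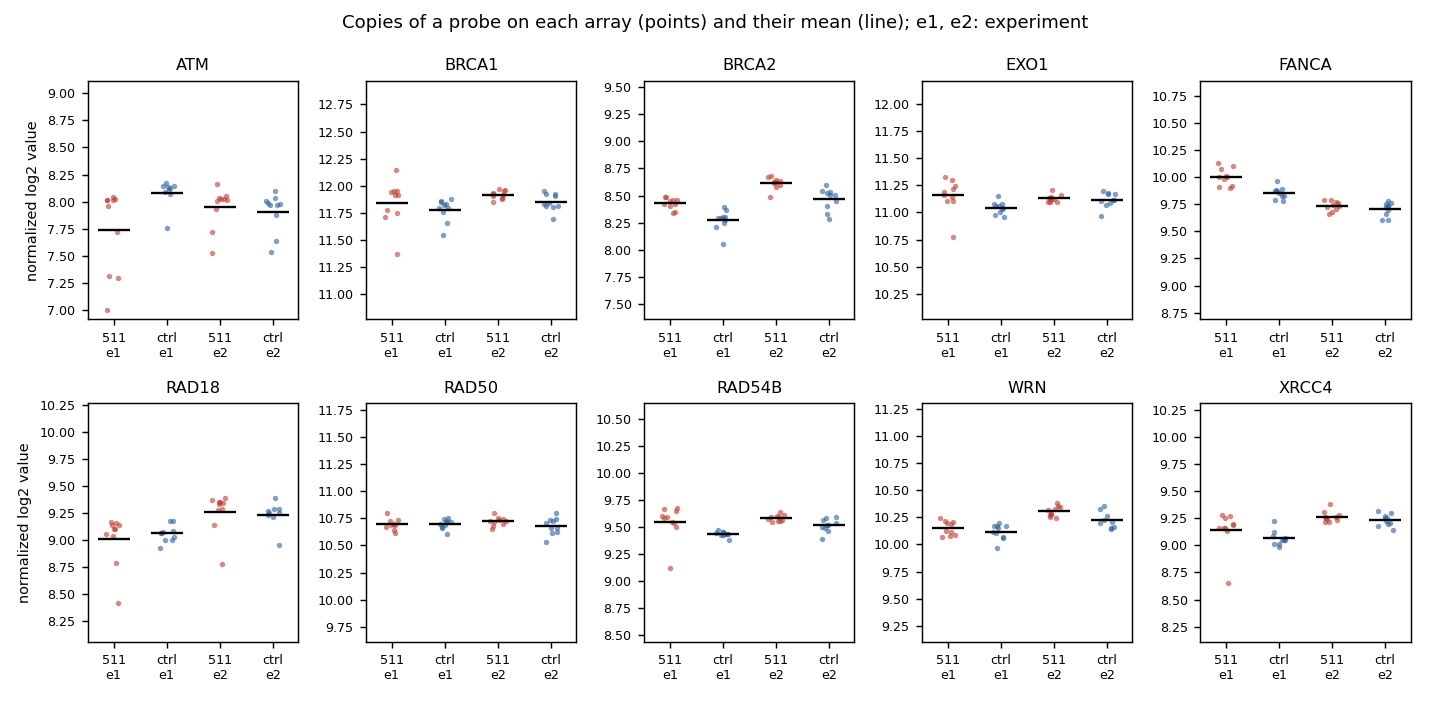
Quantile-normalized log2 value of each copy (points) of the 10 member probes printed 10 times and the mean of the copies (line), by array; red is miR-511 mimic, blue the control mimic, and every panel spans the same 2.2 log2 units. ATM on the miR-511 array of experiment 1 spreads from 7.001 to 8.04, and RAD50 lies level across the 4 arrays.

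Between the experiments, both treatments together, 2 of 53 probes passed the unadjusted threshold in limma (background, 3074 of 22638 tested probes, 13.6%) and none after adjustment. RAD51C, a homologous recombination factor that forms a complex with XRCC3, read 11.94 (miR-511 mimic) and 11.97 (control mimic) in experiment 1, and 12.18 and 12.21 in experiment 2. Experiment 2 was higher by 0.24 ± 0.07, with an unadjusted limma p of 0.0230, where the smallest adjusted p of any tested probe was 0.215. RAD18, a ubiquitin ligase of damaged replication forks, read 9.01 and 9.06 in experiment 1 and 9.26 and 9.23 in experiment 2, a difference of 0.21 ± 0.07 with an unadjusted limma p of 0.0373. Neither gene differed by treatment (-0.03 ± 0.15 and -0.01 ± 0.14). Both calls were lost with the treatment as a term in the fit (unadjusted p of 0.0525 for RAD51C and 0.0784 for RAD18) and without any 1 of the 4 arrays (0.0629 to 0.0995 and 0.0739 to 0.138). Over the 53 probes, 37 were higher in experiment 2 (69.8%, beside 47.6% of all tested probes), with a median difference of 0.04. Probes of proliferation genes had a median of 0.13 in the same comparison, the tested T cell marker probes 0.43 and the epithelial ones -0.25. Of the T cell probes, those of CD2 and CD3E were each well above background on 3 arrays. The part of these differences in the members' values was not tested.

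Other genes of the same pathways were counted by the same test. All 66 further repair genes, from the RPA subunits to the Fanconi endonucleases, were on the arrays by name. Of these, 63 were tested, with 84 probes. None passed the unadjusted threshold between the treatments in limma, with 46 probes higher and 38 lower (median log2FC 0.01). The lowest was LIG1, the replicative ligase, at -0.26 ± 0.30, with 0.17 in experiment 1 and -0.69 in experiment 2. The highest was a RAD51L3 probe at 0.29 ± 0.22 (0.49 and 0.09), beside 0.03 and -0.11 at the other RAD51L3 probes. Both the LIG1 difference and the highest RAD51L3 difference were within 2 SE of 0. Between the experiments 4 of the 84 probes passed the unadjusted threshold, beside 13.6% of all tested probes. Lower in experiment 2 was 1 of 3 probes named ATMIN, an ATM cofactor (-0.52 ± 0.09, beside 0.0009 and -0.21 at the others). The ATMIN probe at -0.21 maps to chromosome 3, and the others map to chromosome 16. Higher in experiment 2 was 1 of 3 probes of RECQL5 (0.73 ± 0.15, beside -0.0059 and -0.13 at the others). So were 1 of 2 probes of RAD1 (0.21 ± 0.07, beside -0.01 at the other) and the RIF1 probe (0.20 ± 0.07). The called RECQL5 probe was well above background on 3 arrays. The RAD1 and RIF1 calls were lost with the treatment as a term (unadjusted p of 0.0756 and 0.0863).

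The arrays carried the markers of a monocytic line. All 6 monocytic marker genes found by name, CD33, SPI1, MPO, CSF1R, ITGAM and CD14, were well above background on the 4 arrays. Of 4 T cell genes 1 was above background on all arrays, of 4 B cell genes 3, of 3 erythroid genes 2 and of 4 epithelial genes 2. None of the tested marker probes passed the threshold between the treatments. Between the experiments 13.6% of all tested probes passed the unadjusted threshold. Of the markers, 1 of 6 monocytic probes (CSF1R), 2 of 3 T cell (CD2 and CD3D) and 1 of 3 erythroid (ALAS2) passed it. So did 2 of 3 epithelial probes (both of KRT18) and 1 of 26 proliferation probes (CCNB1). The CD2 and ALAS2 probes were each well above background on 3 arrays. Of 26 probes of 20 proliferation genes, with which repair genes commonly vary, 19 were higher and 7 lower with miR-511 mimic (median 0.04). Among all tested probes 53.7% were higher. None of these 26 passed the threshold between the treatments. In bulk RNA, fewer cells of a kind and less RNA per cell cannot be told apart.

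Members share promoter letters to different degrees. RefSeq windows of 250 bases before to 50 after the start (GRCh38.p14) were given for 35 of the 41 genes. The E2F motifs TTTCGCGC or TTTGGCGC, on either strand, stood in 3 of the 35 (8.57%), EXO1, FANCC and XRCC6, and in 1.4% of 27305 genes. CCAAT, the letters of NF-Y, stood in 19 of the 35 (54.3%), among them ATM, BRCA1, FANCA and FANCF, and in 39.7% of all. For genes with several windows any window counted. No promoter share was tested.

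Of the probes that hold the letters AAAGACA, 204 were tested. Their median log2FC was -0.0049, beside 0.0098 over all 22638, and in limma 2 were called higher and 2 lower at the unadjusted threshold. The members among them, XRCC2 and the second FANCF probe, stood at 0.02 and -0.14, and neither was called.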

How the data were processed

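The authors hybridized Cy3-labeled RNA to single-dye Agilent Human Whole Genome arrays and deposited the scanner intensity of each spot, per the labels read with Agilent Feature Extraction 10.5.1.1. The intensity is background-subtracted within each array only. A table of log2 values, also deposited by the authors, matches quantile normalization and was an alternative. Here, log2 of the processed intensity of 43118 non-control spots was quantile normalized without spots the scanner software marked as outliers (232 to 301 per array), and the spots of a probe were averaged. A probe printed 10 times was well above background where over 50% of its spots were.

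Tested were 22638 probes, with a value on all 4 arrays and well above background on every array of one treatment or the other. limma 3.58.1 (R 4.3.3) compared the treatments, two-sided, over all tested probes (4.14 degrees of freedom), with the study's unadjusted threshold of 0.05 and with Benjamini-Hochberg adjustment. A plain equal-variance comparison of the averaged values of each probe was an alternative (the study adds such a test only over identical replicate probes). The labels give the experiment of each array, and deviations of arrays of 1 experiment correlated at 0.271 across probes, so the experiment was also fitted as a block. The script's functions were tested on simulated data. The number of arrays limits the precision.

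Members and lists were chosen with earlier results of these data known. Values on every array are given for member probes past the unadjusted threshold in either comparison, the 4 largest rises and falls that kept their direction across the 2 experiments (only probes well above background on every array), probes printed 10 times, probes of a gene that differ in sign, and the probe of smallest error in each role group. TP53BP1, both RNF8 probes, FANCI, CHEK1 and the second PRKDC probe were added after their values were seen. Gene names are those of the files (hg19). By accession 52 of 53 member probes matched RefSeq GRCh38.p14, where MRE11A is MRE11. Alternatives were other scalings, filters, variance models and leaving out each array.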

Additional observations from a re-analysis of the deposited data

How the results depend on the processing

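The count of member probes past the unadjusted threshold between the treatments was 0 and also 0 with 75th percentile scaling, dim probes kept or filtered more strictly, marked spots kept, the deposited table, the brightest probe of each gene and the median of copies. It was 1 (PRKDC) with normexp background correction, with an intensity trend and with the replicate block, where 894 of all tested probes passed in place of 498, and 2 (FANCE and FANCM) with the plain equal-variance comparison. Without 1 array it ranged from 0 to 3. Without the miR-511 array of experiment 2 the 3 were PRKDC, FANCI and RNF8. TP53BP1 passed without the miR-511 array of experiment 1 and the dimmest FANCA probe without the control array of experiment 1. The block changed no other call of a named probe. The median log2FC of the members ranged from 0.028 to 0.041 over the other settings, and from 0.0039 (without the control array of experiment 1) to 0.057 without 1 array. For the further repair genes the count of 0 became 2 with the plain comparison (TDP2 and UIMC1) and 0 to 1 without 1 array, and was 0 with the replicate block. Between the experiments the 2 calls became 1 with 75th percentile scaling, 6 with normexp, 7 with the intensity trend, 3 with the plain comparison (BLM, RAD18 and RAD51C), 0 with the treatment as a term and 0 to 4 without 1 array. Over all 22638 tested probes, 3074 passed between the experiments in the main fit. That count was 3181 with 75th percentile scaling, 3174 with normexp and 3312 with the intensity trend. It was 2561 with the plain comparison and 2615 with the treatment as a term. Between the treatments, in place of 498 of all probes, 708 passed the plain comparison and 285 the trend. With normexp 265 passed, and 1029 in the fit without a filter. The cause of these changes was not tested. Of the 29 named probes, 1 changed sign with 75th percentile scaling, 3 with normexp, 1 with marked spots kept and 3 to 6 without 1 array. Of the 10 named probes with copies, RAD18 changed sign with the median of copies.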
